A study of Mus musculus with 2 samples.

Results

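Among the nuclei of the KO library of interscapular brown adipose tissue (BAT), 80 carried at least 3 captured transcripts, in sum, of Saxo1, Tph2 and Tnni1. These genes are not part of the usual program of a fat cell. The 80 nuclei were taken by a fixed rule from the KO matrix: at least 200 genes found, at most 10% of the unique molecular identifiers (UMIs, counts of separate captured transcripts) from mitochondrial genes, and at least 3 UMIs summed over the 3 genes. The 80 nuclei were 0.699% (95% exact binomial interval 0.555 to 0.869%) of the 11444 KO nuclei within these limits, out of 11495 KO barcodes and 24341 barcodes in both libraries. They were set against 4534 other KO nuclei with at least 10 UMIs summed over Acaca, Plin1, Plin4, Adipoq, Pparg and Lipe, all genes of fat storage and adipocyte identity, and with 0 UMIs of the 3 genes. The latter are called the other KO adipocyte nuclei here.

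The KO mice carried Srsf1 flox/flox and a Cre transgene under the Adipoq promoter, which is active in mature adipocytes, and the WT mice were Srsf1 flox/flox littermates without Cre. Males were used, the tissue was taken at 8 weeks of age, and nuclei were sequenced with a droplet method that reads the 3′ end of transcripts. There was 1 library per genotype, and how many mice stood behind a library is not given in the sources used here. No test between genotypes or between groups of nuclei was therefore made, nuclei are not replicates, and all intervals cover counting error only. The KO library held 80090208 UMIs (median 4363 per barcode) and the WT library 93102814 (median 3439.5). The libraries shared 52 barcodes, none of them among the 80. Srsf1, the splicing factor gene deleted in the KO, was at 173 UMIs per 1000000 (CPM) in WT adipocyte nuclei and 63.2 CPM in other KO adipocyte nuclei. Whether its 3′ reads lie in the deleted part was not examined.

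SAXO1 is a protein that binds and stabilizes microtubules of cilia and centrioles, TPH2 is the tryptophan hydroxylase that makes serotonin in neurons, and TNNI1 is the inhibitory troponin subunit of slow skeletal muscle. Ryr1 and Gtse1, named with these genes as markers of the group, encode the calcium release channel of the muscle sarcoplasmic reticulum and a microtubule-associated protein that is induced by p53 and active in the G2 and S phases. The p53 protein is a transcription factor switched on by DNA damage and other stress, and the products of its target genes halt the cell cycle, repair DNA or lead to cell death. One of these targets, Mdm2, encodes the ligase that sends p53 to the proteasome, the complex that breaks down tagged proteins.

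The 3 genes lie on different chromosomes. In the GENCODE annotation of GRCm38, the build of the files, Saxo1 (ENSMUSG00000028492) spans chr4:86444641-86558328 on the minus strand, Tph2 (ENSMUSG00000006764) chr10:115078641-115185022 on the minus strand and Tnni1 (ENSMUSG00000026418) chr1:135779434-135810989 on the plus strand. The 200 bases before the RefSeq start of each gene (GRCm38.p6) are given because they are the promoters of genes that had 0 UMIs in 97.9% of KO nuclei. They are at chr4:86558304-86558503, chr10:115185023-115185222 and chr1:135799221-135799420, and the Tnni1 window lies inside the longer GENCODE gene. Capitals mark matches, on either strand, to AGGTCA (core of a PPAR site), CACGTG (E-box), GGGCGG (GC box), TTGCNNAA (C/EBP box), TATAAA (the TATA box) or CCAAT (the box bound by NF-Y).
Saxo1: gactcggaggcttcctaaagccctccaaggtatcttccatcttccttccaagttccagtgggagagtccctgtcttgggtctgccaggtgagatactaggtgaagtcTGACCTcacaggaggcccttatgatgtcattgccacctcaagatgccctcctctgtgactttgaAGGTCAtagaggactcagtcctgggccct
Tph2: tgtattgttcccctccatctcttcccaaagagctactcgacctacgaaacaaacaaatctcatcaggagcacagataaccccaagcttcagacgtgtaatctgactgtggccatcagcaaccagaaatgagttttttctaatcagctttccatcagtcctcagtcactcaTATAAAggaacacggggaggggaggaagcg
Tnni1: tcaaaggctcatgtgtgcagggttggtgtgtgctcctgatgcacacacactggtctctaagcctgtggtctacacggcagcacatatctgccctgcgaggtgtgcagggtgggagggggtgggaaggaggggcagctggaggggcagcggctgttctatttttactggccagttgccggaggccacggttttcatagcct
Saxo1 held 2 matches to the PPAR core. At least 1 such match was in 11.4% of 32851 RefSeq promoter windows of this length. Tph2 held 1 TATA box, and at least 1 was in 9.96% of the windows. Tnni1 held none of the 6 motifs, and the other 4 motifs were in none of the 3 windows. E-boxes were in 5.26%, GC boxes in 31.0%, NF-Y boxes in 29.3% and C/EBP boxes in 7.47% of all windows, each at least once. No motif was common to the 3 windows.

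Outside the 80 nuclei the rule leaves at most 2 UMIs of the 3 genes. Of the KO nuclei within the limits, 11207 had 0 UMIs of them, 131 had 1 and 26 had 2. Just inside the threshold, 12 nuclei had 3 UMIs and 8 had 4, and 32 had 10 or more. The nuclei with 2 UMIs had a median of 9241 UMIs in all and those with 3 a median of 10584, and so were of like depth. In the WT library, 2 of 12818 nuclei met the same rule (0.0156%, 0.00189 to 0.0564%), and their totals of 335856 and 52807 UMIs were far above the WT median. Summed over all nuclei within the limits, the 3 genes reached 19.2 CPM (Poisson interval 18.2 to 20.1) in the KO library and 0.785 (0.615 to 0.986) in the WT library. The KO sums were 597 UMIs of Saxo1, 424 of Tph2 and 513 of Tnni1, and the WT sums were 44, 10 and 19.

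**Figure D1:**
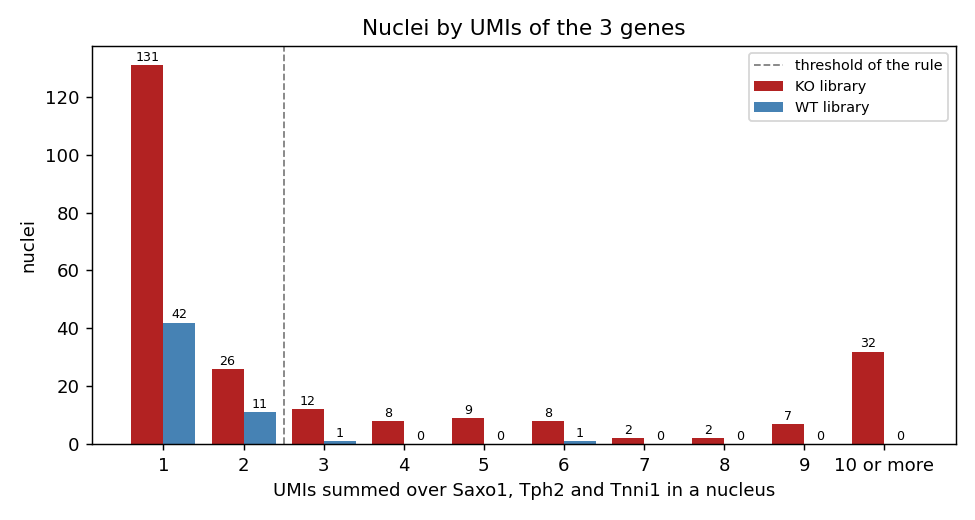
Number of nuclei (y axis) by UMIs summed over Saxo1, Tph2 and Tnni1 (x axis) in the KO and WT libraries, leaving out nuclei at 0, with a dashed line at the threshold. In KO, 131 nuclei had 1 UMI and 32 had 10 or more, whereas in WT 42 had 1 and none had 10 or more.

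Within the 80 nuclei, the level of the 3 genes was very uneven. The lowest had 20.1 CPM of them, the median nucleus 508 and the highest 26304. Tph2 was found in 66 of the 80 and Tnni1 in 56, but Saxo1 in 24. All 3 genes were present in 16 nuclei, 2 of them in 34 and 1 in 30, and the most frequent pair was Tph2 with Tnni1 without Saxo1, in 30. Tph2 alone made up 17 nuclei, Tnni1 alone 9 and Saxo1 alone 4. A single nucleus held 389 of the 563 Saxo1 UMIs of the group (69.1%). It also held 531 UMIs of Cfap53, which encodes a ciliary protein, and 246 of Haus6, which encodes an augmin subunit. Haus6 is the nearest gene before Saxo1 on the same strand. The highest single nucleus held 8.10% of the Tph2 UMIs and 17.7% of the Tnni1 UMIs.

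Each gene was also read in nuclei chosen only by the other 2. Since the 3 genes were chosen together on these nuclei, this is a description of how they overlap. In 70 nuclei with at least 2 UMIs of Saxo1 and Tnni1, Tph2 was present in 58.6% (46.2 to 70.2%) and reached 116 CPM. In 4579 adipocyte nuclei without UMIs of that pair it was present in 0.983% and reached 2.78 CPM, a log2 ratio of 5.38 (5.05 to 5.71). Tnni1 was present in 52.8% (40.7 to 64.7%) of 72 nuclei chosen by Saxo1 and Tph2, against 1.18% of 4588 others, with a log2 ratio of 6.59 (6.24 to 6.96). Saxo1 was present in 19.6% (12.2 to 28.9%) of 97 nuclei chosen by Tph2 and Tnni1 and in 0.483% of 4556 others. The chosen nuclei were deeper, with medians of 11465 to 11932.5 UMIs against 7314 to 7363. With called doublets removed, the shares were 59.0% for Tph2, 57.1% for Tnni1 and 19.6% for Saxo1, against 0.522%, 0.846% and 0.327% in the others.

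The 80 nuclei were of more than 1 kind, and their depth differed from that of the comparison. They held a median of 12327 UMIs and 4148 genes, and the other KO adipocyte nuclei 7296.5 UMIs and 2871.5 genes. Scrublet, which scores barcodes by their likeness to simulated pairs of nuclei, called 35 of the 80 doublets (43.8%, 32.7 to 55.3%) and 32.8% (31.4 to 34.1%) of the other KO adipocyte nuclei. Of the latter, 1973 lay in the 2 clusters of adipocytes with few calls, and 2.99% of these were called. In the KO library 21.4% of nuclei were called, but in WT 1 barcode was called, so calls from WT were not used. There were 8 nuclei above 62497 UMIs, the point 3 median absolute deviations over the KO median on the log scale. They were 10% of the 80 but gave 45.1% of the UMIs of the group, and 7 of them were called doublets.

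Clustering of the KO nuclei without the 3 genes among the variable genes placed most of the 80 together. At resolution 1.0, 47 (58.8%) were in 1 cluster of 125 nuclei, with 22 further nuclei that had 1 or 2 UMIs of the 3 genes and 56 that had none. The leading genes of that cluster were Gm37223, Gm20617, Ankdd1b, Matn3, Ampd1 and Hkdc1. None of these 6 genes was in a marker list of a cell type, so the cluster was given no such name and is called the 125-nucleus cluster. Of its 47 nuclei from the 80, 10 were called doublets, and they held a median of 9445 UMIs. The other 33 held a median of 31793 UMIs, and 25 of them were called doublets. Among these, 16 lay in a cluster of 657 nuclei of which 95.9% were called doublets. At resolution 0.5 the same number, 47, lay in a cluster of 947 nuclei with a median of 870 UMIs, and at that setting the 125-nucleus cluster was not resolved as a group of its own.

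**Figure D2:**
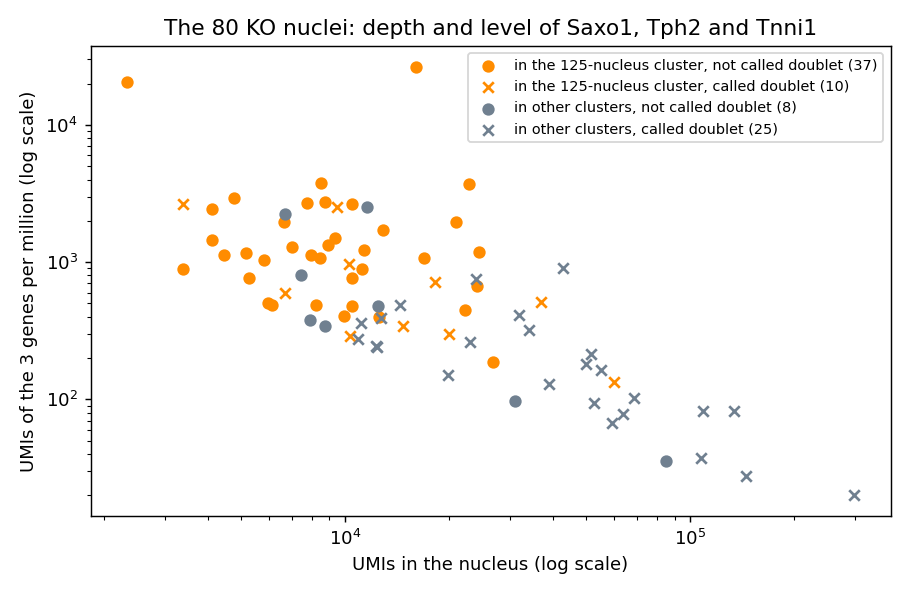
UMIs in each of the 80 nuclei (x axis, log scale) against the CPM of Saxo1, Tph2 and Tnni1 together (y axis, log scale), coloured by cluster at resolution 1.0 and marked by doublet call. The floor of 3 UMIs in the rule sets a lowest CPM that falls with depth. The 47 nuclei of the 125-nucleus cluster have a median of 9445 UMIs and the 33 others a median of 31793.

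Genes of other cell types were read after each nucleus was thinned to 2000 UMIs, which left out none of the 80 and 228 of the other KO adipocyte nuclei. At least 2 UMIs of immune genes were found in 65% of the 80 nuclei and in 63.9% of the others, and in unthinned nuclei in 100% and 91.8%. Endothelial genes were found in 35% and 22.2% (unthinned 83.8% and 44.4%), genes of adipose stem and progenitor cells in 75% and 90.1% (96.2% and 98.1%), mural genes in 10% and 11.5% (55% and 39.3%) and Schwann cell genes in 22.5% and 23.9% (61.3% and 57.9%). At full depth the shares were further apart than the thinned ones for immune, endothelial, mural and Schwann cell genes, and closer for progenitor genes.

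In summed CPM, these lists except the neuronal one were lower in the 80 nuclei than in all 4534 others, but most were higher than in the 1973 nuclei in clusters of adipocytes. There the immune list was at 764 CPM, the endothelial at 135, the progenitor at 4880, the mural at 195, the Schwann cell at 406 and the neuronal at 65.3, each below its sum in the 80, and the erythroid at 36.2, close to it. Endothelial genes were found in 5.24% of these nuclei after thinning, immune genes in 37.9% and progenitor genes in 95.5%. Against all 4534 others, immune genes summed to 4766 against 4883 CPM, but to 1178 CPM in the 47 nuclei of the 125-nucleus cluster and 6040 CPM in the 33 others, and the most abundant was Rbpj at 1030.1 against 1051 CPM. Endothelial genes summed to 670.0 against 1078 CPM, the reverse of the order of their thinned shares, whereas against the clusters of adipocytes sum and share had the same order. They were led by Mecom, and 7 of 19 that entered were at least 2-fold lower (Lyve1, Kdr, Vwf, Esam, Cdh5, Ptprb and Mecom). Of all genes that entered, 5.01% were at least 2-fold higher and 2.44% at least 2-fold lower. Progenitor genes summed to 5389 against 6716 CPM, led by Ebf1, and none of 20 was past 2-fold, as was the case for 19 immune and 6 Schwann cell genes. No gene of the immune, endothelial and progenitor lists was at 0 in the 80. In the 47 nuclei 17 of 19 immune, 13 of 15 endothelial and 1 of 19 progenitor genes were lower, beside 27.0% of all genes. There 1 endothelial and 1 progenitor gene were higher, beside 15.9% of all genes. Mural genes summed to 246 against 331 CPM, led by Notch3, with Acta2 and Rgs5 lower and Higd1b and Myocd at 0. Schwann cell genes summed to 539 against 645 CPM, led by Egfr, with Ncmap at 0. Erythroid genes summed to 36.6 against 82.9 CPM, led by Hbb-bs, with 3 of 5 lower. Neuronal genes summed to 84.8 against 68.5 CPM, led by Rbfox1, with Map2 lower and Snap25, Rbfox3, Gad1 and Slc17a6 at 0. The part of these transcripts in the ratios that follow was not tested.

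Of 11699 genes with an expected count of at least 10 UMIs in the 80 nuclei, 586 (5.01%) were at least 2-fold higher in them and 285 (2.44%) at least 2-fold lower than in the other KO adipocyte nuclei. The median log2 ratio of all 11699 was -0.03. Without called doublets in either group, 1129 of 7309 genes (15.4%) were higher and 1566 (21.4%) lower, and for the 47 nuclei of the 125-nucleus cluster alone 1194 of 7528 (15.9%) were higher and 2033 (27.0%) lower. By the mean of CPM over nuclei the counts were 1643 and 1599, and at 2000 UMIs per nucleus 344 and 563. Against the comparison nuclei in clusters of adipocytes they were 1780 and 733. The filter on low counts used both groups together, so 45 of the 586 higher genes, and 11 of the 15 with the highest ratios, entered only through their UMIs in the 80 nuclei.

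Sox2ot, a long noncoding RNA that overlaps Sox2, led with 659 UMIs in the 80 nuclei (294 CPM) against 190 in the 4534 others (3.81 CPM), a log2 ratio of 6.27 (6.04 to 6.51). It was found in 61 of the 80. Slc8a2, a sodium and calcium exchanger of the brain, was at 127 against 3.83 CPM (log2 5.05). Mtus2, a microtubule-associated protein, was at 141 against 4.99 CPM (log2 4.82), and Dnah12, a dynein heavy chain of cilia, at 89.3 against 3.37 CPM (log2 4.73). They were found in 45 and 39 of the 80. Ryr1 was at 95.1 against 3.75 CPM (log2 4.66, 4.37 to 4.96), in 42 of the 80 and in 2.16% of the others, and Gtse1 at 58.9 against 3.65 CPM (log2 4.01, 3.68 to 4.34), in 45 of the 80 and in 2.51%. The remaining 9 of the 15 were Lsmem1, the myelin protein gene Pmp2, the sperm channel subunit Catsperd, the synaptic adhesion gene Nrxn2, the meiotic gene Msh4, Cfap53, Rasgef1a, D430041D05Rik and the glutamate receptor gene Grm8. Their log2 ratios ran from 4.53 for Lsmem1 to 3.55 for Grm8. Without the nucleus that held most of the Saxo1, Cfap53 was still 6.40-fold higher, at 189 CPM, and Haus6 2.22-fold higher in place of a log2 ratio of 2.83.

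**Figure D3:**
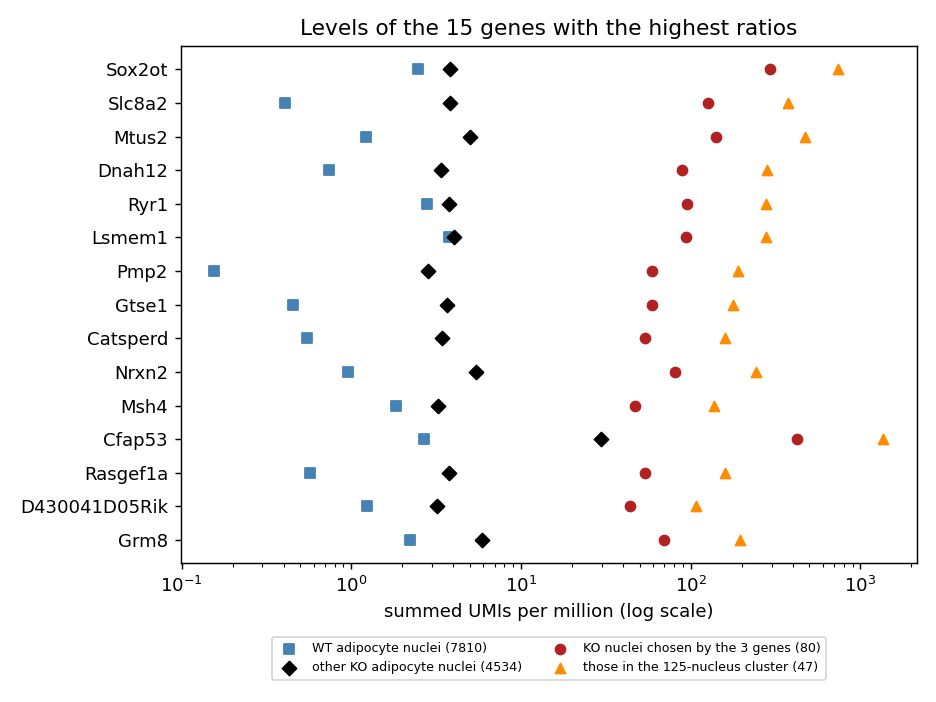
Summed UMIs per 1000000 (x axis, log scale) of the 15 genes with the highest ratios in the 80 nuclei, in the 47 of them in the 125-nucleus cluster, in other KO adipocyte nuclei and in WT adipocyte nuclei. All 15 lie higher in the 47 than in the 80, with Sox2ot at 741 and 294 CPM, and between 0.156 and 3.75 CPM in WT.

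Levels were also read by the number of UMIs of the 3 genes. The classes come from the rule, Ryr1 and Gtse1 were named as markers of the group, and Sox2ot was named for its ratio. All 3 entered only through the 80 nuclei, so the values are a description. Ryr1 was at 3.75 CPM (3.23 to 4.32) in other KO adipocyte nuclei and 11.2 (7.55 to 15.98) in the 131 nuclei with 1 UMI of the 3 genes. It was at 15.7 (5.75 to 34.1) with 2, 37.0 (22.9 to 56.6) with 3 or 4, 62.5 (48.1 to 80.02) with 5 to 9, and 194 (162 to 230.1) with 10 or more. Neighbouring classes between 1 and 4 UMIs had overlapping intervals, as did 3 or 4 against 5 to 9. Sox2ot was at 3.81, 49.3, 91.4, 161, 340 and 338 CPM in the same order, so the last 2 classes were within counting error of each other. Gtse1 was at 3.65, 14.6, 36.6, 17.6, 52.6 and 104 CPM and did not follow the order between 2 UMIs and 3 or 4, where the intervals overlapped (19.99 to 61.3 and 8.46 to 32.4). The 56 nuclei of the 125-nucleus cluster with 0 UMIs of the 3 genes carried 142 CPM of Gtse1 and 121 CPM of Sox2ot, but 14.4 CPM of Ryr1, from 5 UMIs. Over the 22 clusters at resolution 0.5, the genes whose log2 level was most like that of the 3 genes were Catsperd (Pearson's r 0.92), Gm39363 (0.89), Slc8a2 (0.86), Pygm (0.86) and Gm49797 (0.85). This is a description of clusters from 1 library whose depths differ.

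At the other end of the order, Chl1, Gm6209 and Grik2 had 0 UMIs in the 80 nuclei. Chl1 is a neural adhesion molecule and Grik2 a glutamate receptor subunit. Against a floor of 3 counts over the group they were at least 4.33-fold, 6.70-fold and 4.13-fold lower than in the other KO adipocyte nuclei, where they had 289, 448 and 276 UMIs. Fgf14, a regulator of neuronal sodium channels, had 1 UMI against 8.64 CPM, and was at 1796 CPM in WT adipocyte nuclei. Acta2 and Rgs5, markers of mural cells, had 1 and 8 UMIs (0.446 and 3.57 CPM) against 6.49 and 23.2 CPM. The others were Gm12002, Slc39a12, Gm33103, Mgst3, Stac, Epb41l4b, Lsamp, Hmgcll1 and Arsj, each with 1 to 5 UMIs. Ratios that rest on so few UMIs have wide intervals, such as -9.17 to -1.37 on the log2 scale for Acta2.

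Target genes of p53 were higher as a group. Of 32 in the list, 28 entered, of which 14 were at least 2-fold higher and none lower, beside 5.01% and 2.44% of all genes, with a median log2 ratio of 1.03 beside -0.03. Gtse1, 1 of the 14, entered only through the 80 nuclei. The list summed to 3367 CPM in the 80 nuclei, 5916 CPM in the 47 of the 125-nucleus cluster and 1802 CPM in the other KO adipocyte nuclei, and to 790 CPM in WT adipocyte nuclei. Mdm2 was at 616 against 162 CPM (log2 1.93, 1.84 to 2.01), and at 84.0 CPM in WT. The death receptor gene Tnfrsf10b was at 40.2 against 8.38 CPM, Eda2r at 61.1 against 16.1 CPM, and Plk2, a kinase induced by stress, at 66.5 against 21.6 CPM. Trp53inp1, a cofactor of p53 in stress, was at 444 against 148 CPM and the DNA polymerase gene Polk at 199 against 65.3 CPM. Cdkn1a, the cell cycle inhibitor p21, was at 83.9 against 36.8 CPM (log2 1.19, 0.97 to 1.41), and Ccng1 at 42.0 against 15.5 CPM. Gtse1, Psrc1, Rps27l, Zmat3, Sesn2 and Btg2 made up the 14, while Sesn1 and Aen were within 2-fold. Pvt1, the most abundant of the list, was at 644 against 540 CPM, and Perp was not found. Per nucleus, 30 of the 47 and 7 of the 33 lay over 3570 CPM, the 95th percentile of the comparison, as did 29 of the 56 nuclei of the cluster without UMIs of the 3 genes. Without called doublets, 16 of 21 that entered were higher and 2 lower, beside 15.4% and 21.4% of all genes. Against the nuclei in clusters of adipocytes the list was at 3367 against 1831 CPM.

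Proteasome subunits were higher too. This family was listed after its values had been seen. Of 39 genes named Psma, Psmb, Psmc or Psmd with a number, 34 entered, 22 were at least 2-fold higher and none lower, beside 5.01% and 2.44% of all genes, with a median log2 ratio of 1.14. The family summed to 4764 CPM in the 80 nuclei, 10019 CPM in the 47, 1939 CPM in the other KO adipocyte nuclei and 2038 CPM in WT adipocyte nuclei. The lid subunit Psmd14, which removes ubiquitin, was at 684 against 242 CPM (log2 1.497, 1.42 to 1.57) and the base subunit Psmd2 at 144 against 34.2 CPM (log2 2.07). The core subunits Psmb3 and Psma2 were at 71.9 against 19.7 CPM and 261 against 76.4 CPM. Psmb6, at 5.36 against 7.17 CPM, was the lowest of the 34, with an interval of -1.39 to 0.40, and the immunoproteasome genes Psmb8 and Psmb10 had 3 and 4 UMIs. Of the 47 nuclei, 46 lay over the 95th percentile of the comparison (3589 CPM), as did 48 of the 56 nuclei of the cluster without UMIs of the 3 genes, against 6 of the 33. Without called doublets, all 30 that entered were higher, beside 15.4% of all genes, and in the 47 nuclei all 28, beside 15.9%. The nuclei in clusters of adipocytes had 2193 CPM of the family. Of 54 genes of heat shock proteins and DnaJ cofactors that entered, also listed after their values were seen, 5 were higher (Dnajc9, Hspa5, Dnajb6, Hspa9 and Dnajc8) and 1 lower (Hspa1b). The 5 are 9.26% of the 54, beside 5.01% of all genes. Without called doublets 13 of 44 were higher and 3 lower, beside 15.4% and 21.4%, and in the 47 nuclei 13 of 45 were higher and 5 lower, beside 15.9% and 27.0%. Hspa5, the chaperone BiP of the endoplasmic reticulum, was at 246 against 82.9 CPM, and Dnajb6 at 619 against 230 CPM.

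**Figure D4:**
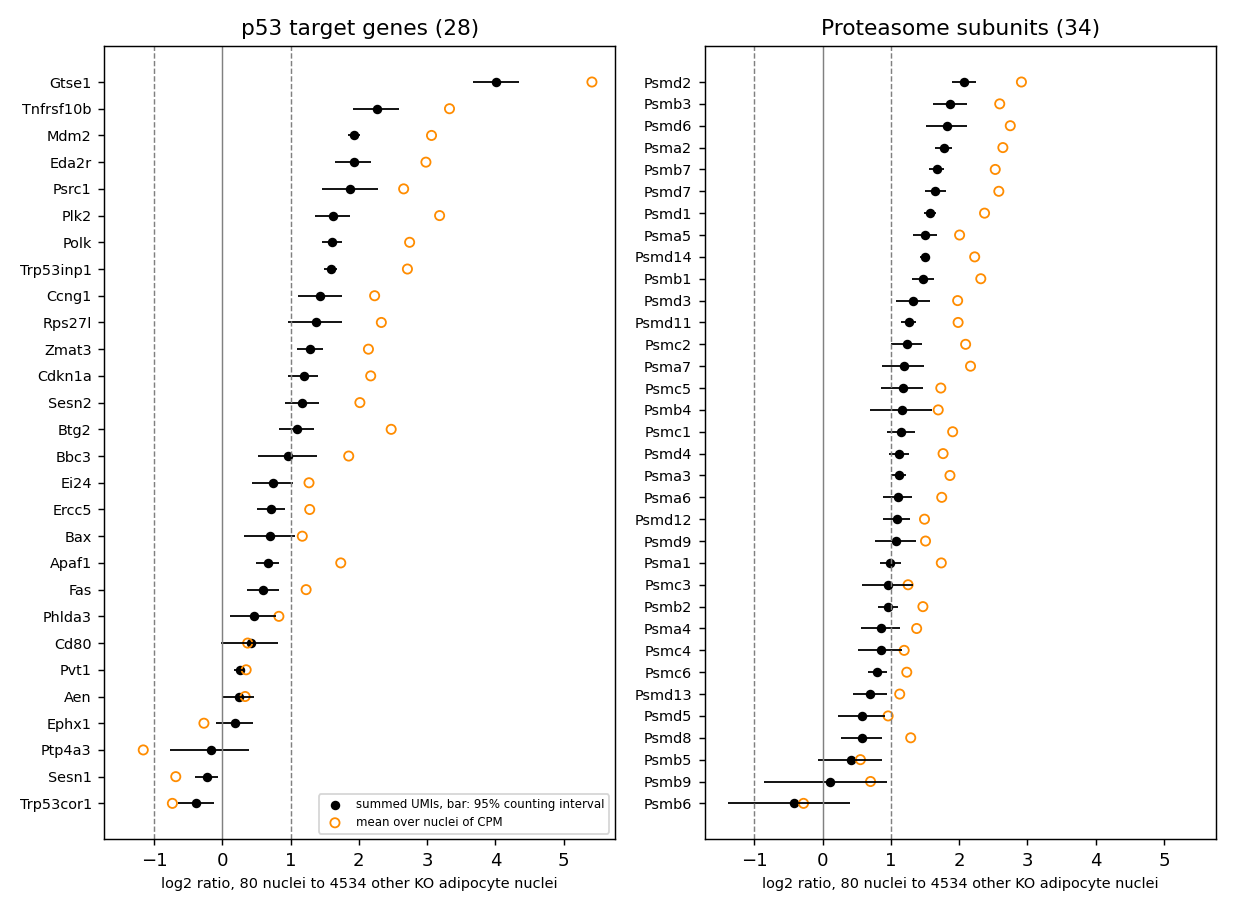
Log2 ratios of the 80 nuclei to the 4534 other KO adipocyte nuclei (x axis) for the p53 target genes and proteasome subunits that entered, from summed UMIs with their 95% counting intervals (black) and from the mean CPM per nucleus (open circles). Dashed lines mark 2-fold. Of the p53 targets 14 of 28 and of the proteasome subunits 22 of 34 lie beyond 2-fold on the higher side, and for most genes the mean per nucleus is farther out.

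Levels of adipocyte genes differed between the 47 nuclei of the 125-nucleus cluster and the 33 others, with most lists lower in the 47 but the white adipocyte list at 1604 against 1334 CPM. In the 80, Nrip1 alone gave 744 of the 1405 CPM of the white adipocyte list. The 6 genes of the rule, which chose the comparison but not the 80, were at 6766 CPM in the 80, 4561 CPM in the 47 and 7975 CPM in the comparison, and 67 of the 80 held at least 10 UMIs of them. Of 26 further adipocyte genes that entered, none was 2-fold higher or lower, beside 5.01% and 2.44% of all genes. In sum they were at 14485 CPM against 17013 CPM. Against the comparison nuclei in clusters of adipocytes the distance was larger, since those had 25899.9 CPM of these genes, 12775 CPM of the 6 genes and 6139 CPM of thermogenic genes, and Adipoq had a log2 ratio of -0.91. In the 47 alone, 15 of 25 were at least 2-fold lower and 1 higher, beside 27.0% of all genes lower and 15.9% higher. Adipoq was at 36.6 against 37.5 CPM, and at 42.6 CPM in the 47, and Cd36, the fatty acid transporter, at 2399.5 against 3076 CPM. Thermogenic genes summed to 1769 CPM in the 47 and 4888 CPM in the 33 others, against 4360 CPM in the comparison and 23234 CPM in WT adipocyte nuclei. Ucp1, the uncoupling protein of brown fat, was at 5.11 CPM in the 47, 39.7 CPM in the 80, 44.7 CPM in the other KO adipocyte nuclei and 1494 CPM in WT. None of 21 thermogenic genes, 16 lipogenic, 20 fatty acid oxidation or 29 OXPHOS genes that entered was past 2-fold in the 80, and of 8 white adipocyte genes only Lep was lower, at 19.2 against 41.1 CPM. Of all genes in that comparison, 5.01% were higher and 2.44% lower. In the 47 nuclei 12 of 18 thermogenic, 10 of 19 fatty acid oxidation, 6 of 8 white adipocyte, 2 of 13 lipogenic and 1 of 22 OXPHOS genes were lower, beside 27.0% of all genes. There 2 OXPHOS genes and 1 white adipocyte gene were higher, beside 15.9% of all genes. Without called doublets 9 of 18, 6 of 19, 4 of 8, 2 of 14 and 2 of 22 were lower, beside 21.4%, and 2 OXPHOS genes were higher, beside 15.4%. Fatty acid oxidation genes summed to 1820 CPM in the 47 and 3682 CPM in the comparison.

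Srsf1 differed little between the 80 and the other KO adipocyte nuclei, at 59.4 against 63.2 CPM (log2 -0.09, -0.35 to 0.16). None of 12 SR splicing factor genes that entered was past 2-fold, beside 5.01% of all genes higher and 2.44% lower. In sum they were at 2233 against 1781 CPM, and at 3111 CPM in the 47. Without called doublets, and likewise in the 47, 3 of 11 were higher and none lower, beside 15.4% and 15.9% of all genes higher. The nuclear noncoding RNAs Malat1 and Neat1 were within 2-fold, with Malat1 at 17738 against 29042 CPM and Neat1 at 3412 against 4397 CPM, and in the 47 at 12526 and 1319 CPM. Of the 47 nuclei, 31 had less Malat1 than the 5th percentile of the comparison (12240 CPM), and of the 33 others 1. Stress genes that set KO adipocytes apart in the study, Trib3, Marc1 and Mreg, were all within 2-fold, with Trib3 at 33.0 against 40.2 CPM. The 5 transcripts listed as gained in KO adipocytes summed to 708 CPM in the 80, 159 CPM in the 47 and 903 CPM in the 33 others. They were at 1108 CPM in the comparison and 802 CPM in its nuclei in clusters of adipocytes. Alcam led, at 634 CPM in the 80, 124 in the 47 and 1015 in the comparison. None of the 5 was past 2-fold in the 80, beside 5.01% of all genes higher and 2.44% lower. In the 47, all 3 that entered were lower, beside 27.0% of all genes. Of 20 integrated stress response genes that entered, Sesn2 was higher and Aldh1l2 and Psat1 lower, beside 5.01% of all genes higher and 2.44% lower. Ddit3 was at 37.0 against 35.7 CPM. In the 47 nuclei 6 of 17 that entered were higher and 4 lower, beside 15.9% and 27.0%, and the list was at 830.1 CPM against 594 in the comparison.

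Most genes of the pathways of SAXO1, TPH2 and TNNI1 were too low to enter. Of 31 genes of serotonin synthesis, transport and reception, 9 entered and none was past 2-fold, and Ddc, the decarboxylase that follows TPH2, had 0 UMIs in the 80. Of 36 ciliary and microtubule inner protein genes found in the files, 8 entered, none was higher and Dnah9 was lower. Beside these 2 lists, 5.01% of all genes that entered were higher and 2.44% lower. Dnah12 and Cfap53, among the highest ratios, are also known from cilia but were not in this list, and Foxj1, the master regulator of motile cilia, had 0 UMIs. None of 5 troponin and thin filament genes that entered was past 2-fold, but the cardiac troponin gene Tnnt2, which was too low to enter, had 58 UMIs in the 80 nuclei against 3 in the 4534 others (log2 8.75, 7.13 to 11.07). Of 29 mitotic genes, Gtse1 was higher and Kif4 and Tpx2 were among those lower, beside 5.01% of all genes higher and 2.44% lower. Gtse1, a named marker of the group, entered only through the 80 nuclei. In the 47, none of 10 mitotic genes that entered was higher and 6 were lower, beside 15.9% and 27.0% of all genes. Gtse1 had too few expected UMIs to enter there, and was at 177 CPM in the 47 against 3.65 CPM in the comparison. The mitotic list was at 537 CPM in the 80, 566 CPM in the 47 and 530 CPM in the comparison, and at 123 CPM in the comparison nuclei in clusters of adipocytes. Of 22 DNA replication genes, Cdc45 and Brip1 were higher and E2f7 was lower, beside 5.01% of all genes higher and 2.44% lower. Of 24 calcium handling genes, Ryr1, Jph2, Trdn and Orai2 were higher, beside 5.01% of all genes higher and 2.44% lower. Ryr1 entered only through the 80 nuclei, and 35 of the 37 Trdn UMIs came from 1 nucleus. The calcium list summed to 3287 against 3462 CPM. Of 17 that entered, 1 was higher and 7 lower without called doublets, beside 15.4% and 21.4% of all genes, and 1 higher and 8 lower in the 47 nuclei, beside 15.9% and 27.0%. In the 47 nuclei 3 of 4 serotonin and 2 of 5 ciliary genes were lower and none higher, beside 27.0% of all genes lower and 15.9% higher.

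Muscle genes fell into those spread over many of the 80 nuclei and those held by 1 of them. Of 35 skeletal muscle genes 10 entered, and 7 were at least 2-fold higher, namely Ryr1, Mybpc1, Pygm, Neb, Cmya5, Trdn and Ttn, beside 5.01% of all genes. Ryr1 and Mybpc1 entered only through the 80. For the 47 nuclei 4 entered, with 1 higher and 2 lower, beside 15.9% and 27.0% of all genes. Ryr1, Neb and Pygm had too few expected UMIs to enter there, so these counts leave them out. A single nucleus that lay in a cluster of muscle nuclei held 189 of the 246 Ttn, 87 of the 91 Mybpc1 and 35 of the 37 Trdn UMIs, and without it the 33 genes of the list other than Tnni1 and Ryr1 were at 512 in place of 793 CPM, against 295 CPM in the comparison. Without that nucleus Ttn was at 25.5 CPM, against 35.2 CPM in the comparison. Mybpc1 and Trdn then also lay below their comparison levels, 4.29 and 4.65 CPM. The higher calls of Ttn, Mybpc1 and Trdn thus rest on that nucleus. Ryr1, Neb, Cmya5 and the glycogen phosphorylase gene Pygm were spread over 42, 36, 69 and 67 of the 80. In the 47 nuclei Ryr1 was at 278 CPM, Neb at 179, Pygm at 252 and Cmya5 at 511, and Ttn, the giant sarcomere gene, at 8.52 CPM. In the 15 other nuclei of the muscle cluster, Ttn was at 10298 CPM and Ryr1 at 489. Myh1, Myh2, Actn3, Mybpc2 and Tnni2, genes of fast muscle, had 0 UMIs in all 80, and Myh2 was at 736 CPM in the muscle nuclei. Myh4, also of fast muscle, had 1 UMI. With Ryr1 and Tnni1 left out and nuclei thinned to 2000 UMIs, at least 2 UMIs of the other muscle genes were found in 46.2% of the 80 and in 7.83% of the other KO adipocyte nuclei (unthinned 95% and 38.0%).

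The place of the higher genes along the chromosomes was then described, a question raised after the ratios had been seen. Saxo1 is transcribed toward lower coordinates, and before its start on the same strand lie Haus6, with a gap of 20.5 kb, and Plin2, the lipid droplet protein gene, with a gap of 90.1 kb. Haus6 was at 159 against 22.3 CPM and Plin2 at 1818 against 1274 CPM, and in the 47 nuclei they were at 505 and 2862 CPM. Without the 1 nucleus that held 246 of the 356 Haus6 UMIs, Haus6 was at 49.5 CPM and Plin2 at 1664 CPM in the rest of the 80. Before Tph2 on the same strand lies Tbc1d15, with a gap of 12.85 kb, at 290 against 92.3 CPM (log2 1.65, higher), and beyond it Rab21 at 189 against 103 CPM. Before Tnni1 on the same strand lies Phlda3, with a gap of 10.3 kb to the GENCODE start of Tnni1, at 35.3 against 25.7 CPM. The RefSeq start of Tnni1 lies further from Phlda3. The genes after Tnni1 on the same strand, Lad1 and the cardiac troponin gene Tnnt2, had 48 and 58 UMIs in the 80 nuclei against 6 and 3 in the 4534 others. Both had too few UMIs to enter. The 4 genes on the other strand near these loci that entered were Dennd4c, with a log2 ratio of -0.23, Adamtsl1 at -0.07, Nav1 at -0.08 and Zfc3h1 at -0.06. Pkp1, on the other strand beyond Tnni1, was too low to enter, with 6 UMIs against 4 (log2 5.06, 2.99 to 7.33). Of 15 genes within 300 kb of the 3 genes that entered, 2 were higher, Haus6 and Tbc1d15, and none lower, beside 5.01% and 2.44% of all genes, with a median log2 ratio of -0.06. The lowest of them was Csrp1, before Tnni1 on the same strand, at 7.59 against 13.5 CPM.

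The genes with the highest ratios were described in the same way. A gene was called active at 50 CPM or more in the other KO adipocyte nuclei, a level set without the 80. An active gene on the same strand ended within 100 kb before the start of 12 of the 15 genes with the highest ratios, of which 11 entered only through the 80 nuclei, so that nothing is read from this count. It was Fxr1 before Sox2ot with a gap of 33.9 kb, Napa before Slc8a2 (11.9 kb), Arf4 before Dnah12 (28.2 kb), Ifrd1 before Lsmem1 (2.08 kb) and the fatty acid binding protein gene Fabp4 before Pmp2 (20.2 kb). It was Safb before Catsperd (21.8 kb), Sf1 before Nrxn2 (40.7 kb), Rabggtb before Msh4 (1.15 kb), Mbd1 before Cfap53 (0.36 kb), Hnrnpf before Rasgef1a (85.8 kb), Hipk3 before D430041D05Rik (15.5 kb) and Ppara before Gtse1 (56.9 kb). For Ryr1 and Grm8 the gap was over 100 kb, and for Mtus2 there was none within 300 kb. The log2 ratios of these 12 active genes ran from -0.32 (Fabp4 and Ppara) to 1.56 (Mbd1), with Fxr1 at 393 against 212 CPM and Fabp4 at 1112 against 1393 CPM.

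Over all genes, an active gene lay within 100 kb before the start on the same strand for 39.9% of the 586 higher genes, 12.98% of the 285 lower genes and 22.9% of all genes that entered. Among genes under 50 CPM in the comparison the shares were 41.7% of 503 higher genes and 23.4% of 7497 in all. The share of such genes that were at least 2-fold higher was 18.01% of 422 with a gap of up to 10 kb, 12.5% of 416 with 10 to 30 kb, 8.96% of 915 with 30 to 100 kb, 6.51% of 1445 with 100 to 300 kb and 4.63% of 4299 with none. Where the nearest active gene instead lay after the gene on the same strand, the shares were 8.08%, 6.18%, 7.41% and 6.15%, and 6.70% with none. Where it lay before the start on the other strand, they were 4.38%, 8.71%, 7.14% and 7.46%, and 6.39% with none. The gradient with distance was present for active genes before the start on the same strand and had no counterpart of that size for the other 2 places. Among genes that enter on the level of the comparison nuclei alone, the shares were 16.3%, 10.4%, 8.18%, 5.99% and 4.42%. Without called doublets, 31.4% of the higher genes and 23.2% of all genes that entered had such a gene before them, a smaller difference. Neighbouring genes are not independent, and the reads behind a UMI were not analysed here.

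**Figure D5:**
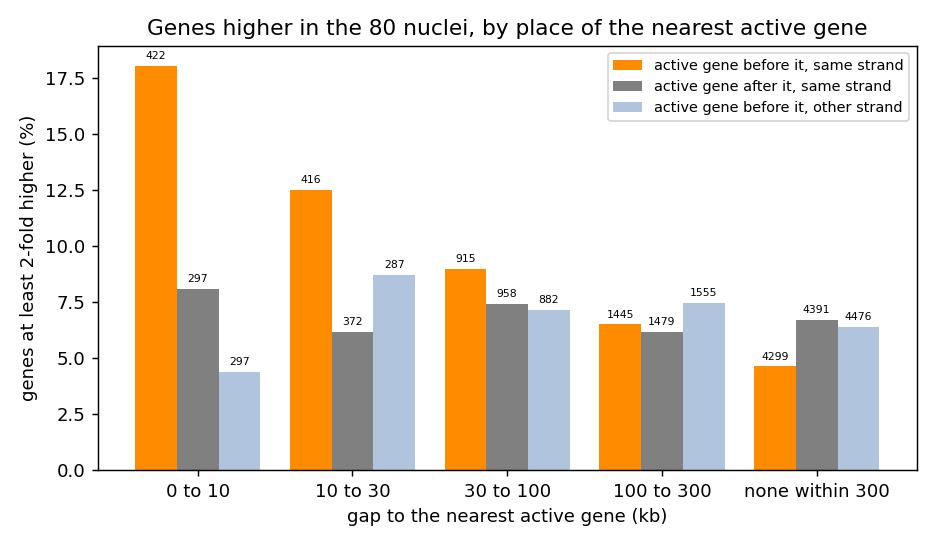
Share of genes at least 2-fold higher in the 80 nuclei (y axis, %) by gap to the nearest active gene (x axis, kb), for genes under 50 CPM in the comparison, with the number of genes over each bar. With the active gene before the start on the same strand the share runs from 18.01% to 4.63%, and for the other 2 places it stays between 4.38% and 8.71%.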

How the data were processed

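Single-nucleus RNA-seq was measured in 1 WT and 1 KO library. The authors demultiplexed the barcodes, aligned reads to GRCm38 with STAR and deposited the UMI counts, not normalized, that Cell Ranger gave (version 5.0.0 in the submitters' processing notes, which also name Seurat 3.1.1, and an earlier version in the study's methods). Whether intronic reads were counted is not given in the sources used here. The choice of the nuclei and of the gene lists was made with earlier results of these data known.

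The deposited counts were summed over the nuclei of a group and scaled to 1000000 (CPM). Log2 ratios carry exact conditional 95% intervals, shares exact binomial and levels exact Poisson ones. Genes entered at 10 or more expected UMIs from the pooled level, and 2-fold was the threshold. Genes named were the 5 markers, the 15 highest and 15 lowest ratios, the genes of 30 lists (2 of them added after values were seen), the genes within 300 kb of the 3 genes and the 5 genes most alike over clusters. Other genes named were active genes next to these. Of genes with a shared symbol, Ddit3 was read from the copy with UMIs. Places came from GENCODE release M21, found for 32235 of 32285 genes.

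Scrublet was run on each library; called nuclei were kept, as the study's methods give no such step, and results without them are given. KO nuclei were clustered on 2000 variable genes without the 3 genes, 30 components and 15 neighbours, by Leiden at resolution 0.5 and 1.0. The calculation of ratios and intervals was tested on simulated data. Tools were Python 3.11.15, scanpy 1.11.5, numpy 2.4.6, scipy 1.17.1, pandas 2.3.3, igraph 0.11.9 and matplotlib 3.10.9.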

Additional observations from a re-analysis of the deposited data

How the results depend on the processing

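No paired analysis was possible because each genotype has 1 library, and depth limits every ratio of a gene with few UMIs. The number of nuclei was 45 without called doublets and 5 when nuclei with 5 or more UMIs of another cell type were removed, of which 0% were called, and it lay between 60 and 106 under the other settings. The genes past 2-fold, 586 higher and 285 lower, were 1129 and 1566 without called doublets, 979 and 720 without nuclei above the depth limit, 1194 and 2033 for the 47 nuclei of the 125-nucleus cluster, 1780 and 733 against nuclei of clusters of adipocytes, 1643 and 1599 by the mean of CPM over nuclei, 344 and 563 at 2000 UMIs per nucleus, and 305 and 88 at 30 expected UMIs. They were 460 lower at 5 UMIs of the 3 genes, and 54 higher with nuclei of other types removed. The cause of these differences was not tested. The 4 settings on nuclei above the depth limit, the 47 nuclei, the nucleus with most Saxo1 and the clusters of adipocytes were added after seeing the data, as were those on active genes. At 20 or 100 CPM for an active gene, 55.8% and 23.5% of higher genes had one before them, against 37.2% and 12.9% of all.

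Of 18 genes followed over up to 18 settings, Sox2ot (log2 ratio 5.65 to 9.54), Ryr1 (4.42 to 7.26), Gtse1 (3.24 to 5.81), Mdm2 (1.79 to 3.34) and Psmd14 (1.40 to 2.65) kept their direction where a value was given. With nuclei of other types removed, Ryr1, Mtus2, Ccng1, Ucp1, Ppargc1a and Adipoq gave none. Values near 0 turned sign, and the same genes moved further down at other settings, to -0.91 for Adipoq against clusters of adipocytes, -3.13 for Ucp1 in the 47 nuclei, -1.39 for Ppargc1a without called doublets and -2.65 for Acaca with nuclei of other types removed. Adipoq was 0.023 at 2 UMIs of the 3 genes, 0.0076 with 10 adipocyte UMIs required, 0.0183 below the depth limit, 0.18 in the 47 nuclei and 0.21 against nuclei with 5 adipocyte UMIs. At that last setting Ucp1 was 0.075, Acaca 0.19 and Ppargc1a 0.26. Ppargc1a was also 0.19 at 5 UMIs of the 3 genes, 0.039 with 10 adipocyte UMIs required, 0.0010 without the nucleus with most Saxo1 and 0.0234 centred on the median. With nuclei of other types removed, Plin2 was -0.35 and Srsf1 2.24. Only 5 nuclei of the 80 remained at that setting. Its values, among them -2.65 for Acaca and 9.54 for Sox2ot, therefore rest on few nuclei.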
